A study of Mus musculus with 24 samples.

Results

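The liver makes bile acids from cholesterol, secretes them into bile and takes most of them up again from portal blood. The 8 genes described here are the core of that cycle, and they were chosen by name, as the rows of the liver expression table that carry the symbols Cyp7a1, Cyp8b1, Cyp27a1, Cyp7b1, Nr0b2, Nr1h4, Abcb11 and Slc10a1. They are 8 of the 55469 genes of that table, and 8 of the 8 passed the filter on low values. The series holds RNA sequencing of 24 samples from liver and brain, with 4 genotypes per tissue and 3 replicates (A, B and C) per genotype. The groups were wild-type (WT) mice and 3 lines that each carried a homozygous CRISPR-Cas9 deletion of a single phenylalanine tRNA gene (tRNA-Phe-1-1-/-, tRNA-Phe-3-1-/- and, as the remaining line, tRNA-Phe-2-1-/-). All groups shared the C57BL/6N background. Per the study's methods the mice were male, 10 weeks old and matched to WT littermates, and the deletions were bred through the germline, so that every tissue carried them. The methods also state that the mice of each experiment came from different litters, and the litter of each sample is not given here. The time of day of sampling is not given in the sources used here. Per the study's methods the RNA came from separate mice, with 3 per genotype and tissue here.

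In the classic route of bile acid synthesis, Cyp7a1 adds the first hydroxyl group to cholesterol and sets the rate, and Cyp8b1 adds the hydroxyl group that makes cholic acid. In the alternative route, Cyp27a1 oxidises the side chain of cholesterol and Cyp7b1 acts on the product. Nr1h4 encodes FXR, the nuclear receptor for bile acids, and Nr0b2 encodes SHP, a repressor without a DNA-binding domain whose transcription FXR activates and which in turn lowers Cyp7a1 and Cyp8b1. Abcb11 (the bile salt export pump) moves bile salts into the canaliculus and Slc10a1 (NTCP) takes them up from the sinusoid. Several of these genes also follow the circadian clock, and their transcripts fall in inflammation in many models.

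Expression is given as normalised counts, which are the authors' estimated read counts per gene divided by a size factor for each sample. In the liver, 32276896 to 51584522 reads per sample lay behind them. Log2 fold changes are differences of means on the log2(normalised count + 1) scale with the standard error of the model, from limma fitted to all 12 livers, and adjusted p-values are Benjamini-Hochberg values over the 15856 liver genes tested, with a threshold of 0.05. Hepatocyte markers were high in every liver (their summed normalised counts ranged from 3219670 to 4822370), and the ileal marker Fabp6 was listed at 0 in all 12. Each liver expressed the Y-linked gene Ddx3y (2316 to 3684 normalised counts), as the male sex of the animals requires. The tRNA-Phe genes themselves were not analysed here.

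In WT livers, levels can be compared roughly between genes after division by the length of each gene's exons. This length takes in every annotated exon of a gene (11786 bases for Cyp7b1), also those of transcripts that the liver may not make, so the order is approximate. Per kilobase of exon, Cyp8b1 stood at 8367 ± 2923 normalised counts (SD, n = 3), Abcb11 at 6514 ± 337, Cyp27a1 at 5002 ± 740 and Slc10a1 at 3716 ± 891. Cyp7a1 followed with 1208 ± 199, Nr1h4 with 785 ± 131, Nr0b2 with 696 ± 300 and Cyp7b1 with 357 ± 303. In this order the WT samples of Cyp8b1 and Abcb11 overlapped, as did those of Cyp27a1 and Slc10a1, of Nr1h4 and Nr0b2, and of Nr0b2 and Cyp7b1. By this measure Abcb11 was thus above Cyp27a1 in each WT sample, and Slc10a1 above Cyp7a1.

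In the comparison of tRNA-Phe-1-1-/- with WT livers, 4 of the 8 genes passed the test. Abcb11, Nr0b2 and Cyp8b1 were lower and Cyp7b1 was higher, while Cyp7a1, Cyp27a1, Nr1h4 and Slc10a1 did not pass the threshold. Of all liver genes tested, 17.3% passed in this comparison (8.27% higher and 9.08% lower). The 8 genes had a median log2 fold change of -0.39, where all genes tested had -0.01. They were chosen with earlier results of these data known, so their counts and median beside those of all genes are a description only. The ranges of tRNA-Phe-1-1-/- and WT were apart for 3 of the 8 genes, as they were for 34.8% of all genes tested. In tRNA-Phe-2-1-/- livers 0 of the 8 genes passed with limma (1 at an unadjusted p under 0.05), edgeR (0) or DESeq2 (0), where 0.132% of all genes did with limma. In tRNA-Phe-3-1-/- livers 0 of the 8 passed as well (1 at an unadjusted p under 0.05, 0 with edgeR and 0 with DESeq2), against 0.883% of all genes. Of all 15856 genes tested, 2365 had an unadjusted p under 0.05 in tRNA-Phe-2-1-/- and 2550 in tRNA-Phe-3-1-/- livers. The ranges were apart from WT for 1 of the 8 genes in tRNA-Phe-2-1-/- (25.4% of all genes) and for 0 in tRNA-Phe-3-1-/- livers (19.9% of all genes). Because these are whole pieces of tissue, fewer cells of a type and less RNA per cell cannot be told apart.

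**Figure D1:**
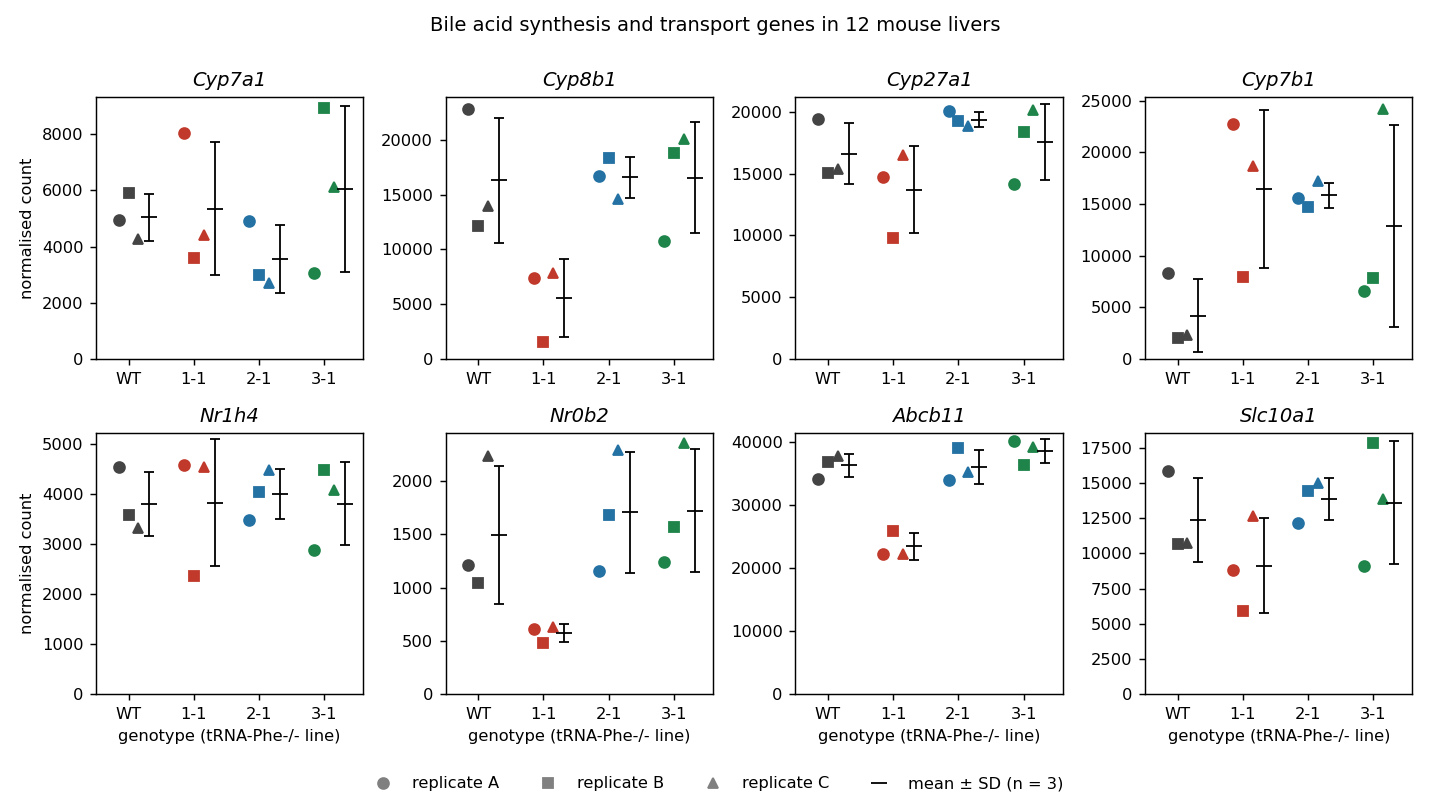
Normalised counts (vertical axes, from 0) of the 8 bile acid genes in each of the 12 livers, by genotype (horizontal axes), with a symbol for each replicate and the mean ± SD (n = 3) in black. The 3 tRNA-Phe-1-1-/- livers lie below the 9 other livers for Cyp8b1, Nr0b2 and Abcb11, while the 4 groups overlap for Cyp7a1, Nr1h4 and Slc10a1.

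The promoters of the genes that fell in tRNA-Phe-1-1-/- livers are shown to place these genes in the pathway, since FXR binds an inverted repeat of the motif AGGTCA and CLOCK-BMAL1 binds the E-box CACGTG. RefSeq windows on GRCm38.p6, from 250 bases before to 50 bases after the start of transcription, were found for 6 of the 8 genes (7 windows, of which Slc10a1 has 2). Cyp7a1 and Cyp7b1 had no window. Capitals mark matches to the searched motifs, and the sequences are written 5′ to 3′ on the strand of the gene. Abcb11 is on the minus strand (chr2:69342567-69342866), Nr0b2 on the plus strand (chr4:133553126-133553425) and Cyp8b1 on the minus strand (chr9:121916256-121916555).
Abcb11: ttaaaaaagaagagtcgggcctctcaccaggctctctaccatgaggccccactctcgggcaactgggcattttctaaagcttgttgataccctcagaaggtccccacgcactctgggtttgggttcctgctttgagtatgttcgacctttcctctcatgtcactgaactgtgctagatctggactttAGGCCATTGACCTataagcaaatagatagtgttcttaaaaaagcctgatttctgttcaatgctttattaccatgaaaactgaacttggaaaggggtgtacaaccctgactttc
Nr0b2: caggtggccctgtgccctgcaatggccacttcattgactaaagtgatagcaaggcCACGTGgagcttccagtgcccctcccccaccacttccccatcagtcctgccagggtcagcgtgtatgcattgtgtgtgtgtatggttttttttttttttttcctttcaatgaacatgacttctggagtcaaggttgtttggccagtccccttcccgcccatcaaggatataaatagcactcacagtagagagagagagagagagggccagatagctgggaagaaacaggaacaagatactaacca
Cyp8b1: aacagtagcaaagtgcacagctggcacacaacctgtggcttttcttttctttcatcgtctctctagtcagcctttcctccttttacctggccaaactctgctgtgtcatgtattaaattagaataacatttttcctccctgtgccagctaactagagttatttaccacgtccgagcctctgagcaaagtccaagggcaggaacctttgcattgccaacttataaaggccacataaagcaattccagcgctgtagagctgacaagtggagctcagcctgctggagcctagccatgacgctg

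Motifs were searched on both strands. The Abcb11 window held AGGCCATTGACCT at positions -63 to -51 from the start of transcription, which matched 11 of the 12 fixed letters of the FXR repeat AGGTCANTGACCT. A match with at most 1 letter different was found in 0.0822% of all 32851 promoter windows, and an exact match in 0.00913%. This search with a letter allowed to differ was added after the sequences had been seen. The Nr0b2 window held CACGTG at -195 to -190, a motif found in 7.15% of all windows. It held no AGGTCA and no FXR repeat, also with 1 letter allowed to differ. Sequence outside the windows was not searched. AGGTCA, which overlaps the longer repeat, was found in 16.3% of windows, and the windows of Abcb11, Nr1h4 and the second of Slc10a1 held it. The motifs CAAGGTCA, which Nr5a2 binds (1.56% of windows), and TTANGTAA, the D-box that Dbp binds (2.32%), were not found in the windows of the 6 genes. For every motif other than the FXR repeat only exact matches were sought, and on these terms none was found in the windows of Cyp8b1 and Cyp27a1. The Cyp8b1 window held CAAGGGCA, which is 1 letter different from CAAGGTCA, and the share of windows with such a near match was not counted. The motifs were thus not searched alike, and the windows of Abcb11 and Cyp8b1 cannot be ranked by them. A match is a description of letters and does not show binding.

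Of the 2 transporters among the 8 genes, Abcb11 (ENSMUSG00000027048.15, chromosome 2, 69238282 to 69342616) had the lower adjusted p in tRNA-Phe-1-1-/- livers. Its normalised counts were 34142, 36732 and 37780.0 in WT replicates A, B and C and 22259, 25794 and 22160.1 in tRNA-Phe-1-1-/- replicates A, B and C. In tRNA-Phe-2-1-/- livers they were 33863, 38989 and 35177, and in tRNA-Phe-3-1-/- livers 40076, 36313 and 39112. The 3 tRNA-Phe-1-1-/- livers were thus below each of the 9 other livers, and the other genotypes overlapped. Its log2 fold change in tRNA-Phe-1-1-/- against WT was -0.63 ± 0.09 (SE, n = 3 per group, limma adjusted p = 0.00132), which is 0.645 times the WT level. It also differed from tRNA-Phe-2-1-/- (-0.62 ± 0.09, adjusted p = 0.00166) and from tRNA-Phe-3-1-/- (-0.72 ± 0.09, adjusted p = 0.000794). In these 3 comparisons the call held under each of the 17 alternative settings run for each, with log2 fold changes from -0.79 to -0.48.

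Slc10a1 (ENSMUSG00000021135.8, chromosome 12, 80953185 to 80968705) varied more. The WT livers held 15834, 10632 and 10733 normalised counts and the tRNA-Phe-1-1-/- livers 8838, 5900.2 and 12626. In tRNA-Phe-2-1-/- livers there were 12188, 14428 and 14971, and in tRNA-Phe-3-1-/- livers 9113, 17821 and 13843. All 4 genotypes overlapped, and tRNA-Phe-1-1-/- replicate B was the lowest of the 12 livers. The log2 fold change in tRNA-Phe-1-1-/- against WT was -0.49 (95% interval -1.11 to 0.14, limma adjusted p = 0.271).

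Of the regulators, Nr0b2 (ENSMUSG00000037583.2, chromosome 4, 133553376 to 133556686) was low in each tRNA-Phe-1-1-/- liver. Replicates A, B and C held 610 (609.8), 481 and 636 normalised counts there, against 1211, 1042 and 2235 in WT. The tRNA-Phe-2-1-/- livers held 1152, 1678 and 2286, and the tRNA-Phe-3-1-/- livers 1237, 1566 and 2360 (2359.6). The tRNA-Phe-1-1-/- samples did not overlap with those of any other genotype, and replicate C was the highest liver of each of the 4 genotypes. Nr0b2 fell by 1.30 on the log2 scale in tRNA-Phe-1-1-/- livers against WT (SE 0.32, limma adjusted p = 0.0175), to 0.405 times the WT level. The difference was -1.52 ± 0.32 from tRNA-Phe-2-1-/- (adjusted p = 0.00947) and -1.54 ± 0.32 from tRNA-Phe-3-1-/- (adjusted p = 0.00893). Against WT the call was lost without WT replicate C (-0.97, adjusted p = 0.0689) and without tRNA-Phe-1-1-/- replicate B (-1.18, adjusted p = 0.0521). It held in each of the 11 settings that kept all livers.

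Nr1h4 (ENSMUSG00000047638.15, chromosome 10, 89454234 to 89533645), the receptor upstream of Nr0b2, did not pass in any comparison. Its normalised counts were 4528, 3569.9 and 3319 in WT and 4566, 2369 and 4539 in tRNA-Phe-1-1-/- livers. They were 3488, 4034 and 4481 in tRNA-Phe-2-1-/- and 2872, 4470.4 and 4067 in tRNA-Phe-3-1-/- livers. The groups overlapped throughout, with tRNA-Phe-1-1-/- replicate B lowest of all. The log2 fold change in tRNA-Phe-1-1-/- against WT was -0.04 (95% interval -0.58 to 0.50, limma adjusted p = 0.929), so changes of the size seen for Nr0b2 lay outside its interval.

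In the classic route, Cyp7a1 (ENSMUSG00000028240.2, chromosome 4, 6265612 to 6275632) did not pass in any comparison. WT replicates A, B and C held 4943, 5921 and 4266 normalised counts and the tRNA-Phe-1-1-/- livers 8031, 3604 and 4425. The tRNA-Phe-2-1-/- livers held 4927, 3008 and 2717, and the tRNA-Phe-3-1-/- livers 3067, 8941 and 6133. The highest and the lowest tRNA-Phe-1-1-/- liver lay on either side of the WT range. The log2 fold change was 0.01 (95% interval -0.83 to 0.85, limma adjusted p = 0.987) in tRNA-Phe-1-1-/-, -0.54 (-1.38 to 0.29, adjusted p = 0.531) in tRNA-Phe-2-1-/- livers. For tRNA-Phe-3-1-/- it was 0.14 (-0.69 to 0.98, adjusted p = 0.891). Each interval spans changes of either sign.

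Cyp8b1 (ENSMUSG00000050445.4, chromosome 9, 121914356 to 121916305) fell in tRNA-Phe-1-1-/- livers. Replicates A, B and C of WT held 22817, 12175 and 13958 normalised counts, and those of tRNA-Phe-1-1-/- 7359, 1515 and 7856. In tRNA-Phe-2-1-/- livers there were 16729, 18352 and 14590.1, and in tRNA-Phe-3-1-/- livers 10787, 18765 and 20095. The tRNA-Phe-1-1-/- livers were below all others, and replicate B was the lowest of the 12. Its log2 fold change against WT was -1.82 ± 0.52 (limma adjusted p = 0.0331), which is 0.283 times the WT level, and it was -1.89 ± 0.52 against tRNA-Phe-2-1-/- (adjusted p = 0.0306) and -1.85 ± 0.52 against tRNA-Phe-3-1-/- (adjusted p = 0.0335). The call against WT was lost without WT replicate A (-1.55, adjusted p = 0.0993), B (-2.01, adjusted p = 0.0554) or C (-1.91, adjusted p = 0.0792), and held without any 1 of the tRNA-Phe-1-1-/- replicates. Its size rested on tRNA-Phe-1-1-/- replicate B, without which it was -1.05 against WT (0.484 times the WT level, adjusted p = 0.0341), -1.12 against tRNA-Phe-2-1-/- and -1.07 against tRNA-Phe-3-1-/-. Against tRNA-Phe-2-1-/- it was lost without replicate A (adjusted p = 0.0739), B (0.102) or C (0.0669) of that line, and against tRNA-Phe-3-1-/- without replicate B (0.0844) or C (0.1000) of that line.

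In the alternative route, Cyp27a1 (ENSMUSG00000026170.6, chromosome 1, 74713148 to 74737897) held 19441, 15015 and 15374 normalised counts in WT and 14752, 9779.5 and 16542 in tRNA-Phe-1-1-/- livers. The tRNA-Phe-2-1-/- livers held 20053, 19217 and 18851, and the tRNA-Phe-3-1-/- livers 14123, 18355 and 20154. The tRNA-Phe-2-1-/- livers lay within 1.06-fold of each other and above the 3 tRNA-Phe-1-1-/- livers, and the other pairs of genotypes overlapped. Against WT the log2 fold change in tRNA-Phe-1-1-/- livers was -0.30 (95% interval -0.72 to 0.11, limma adjusted p = 0.298). Against tRNA-Phe-2-1-/- it was -0.54 ± 0.19 (limma adjusted p = 0.0753), which passed with DESeq2 (adjusted p = 0.0483) and without tRNA-Phe-1-1-/- replicate C (adjusted p = 0.0344).

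Cyp7b1 (ENSMUSG00000039519.6, chromosome 3, 18071944 to 18243890) was the gene that rose. Its normalised counts were 8332, 2006 and 2295 in WT replicates A, B and C and 22736, 7984 and 18678 in those of tRNA-Phe-1-1-/-. They were 15553, 14745 and 17189 in tRNA-Phe-2-1-/- and 6540.0, 7891 and 24168 in tRNA-Phe-3-1-/- livers. WT replicates B and C were the lowest of the 12 livers, and WT replicate A lay above tRNA-Phe-1-1-/- replicate B, so that these groups overlapped. The log2 fold change in tRNA-Phe-1-1-/- against WT was 2.15 ± 0.59 (limma adjusted p = 0.0281), which is 4.45 times the WT level. It was 2.23 ± 0.59 in tRNA-Phe-2-1-/- livers with an adjusted p of 0.145, and there the samples did not overlap with WT. In tRNA-Phe-3-1-/- livers it was 1.67 ± 0.59, with an adjusted p of 0.194. The tRNA-Phe-1-1-/- livers did not pass against tRNA-Phe-2-1-/- (-0.07, 95% interval -1.36 to 1.22) or against tRNA-Phe-3-1-/- (0.48, 95% interval -0.81 to 1.77), and the 3 comparisons with WT share the same WT livers. Without WT replicate A the fold in tRNA-Phe-1-1-/- livers was 2.81 on the log2 scale, or 7.00 times the WT level (adjusted p = 0.00661), and those of the other lines were 2.88 (tRNA-Phe-2-1-/-, adjusted p = 0.0644) and 2.33 (tRNA-Phe-3-1-/-, adjusted p = 0.0991). Without tRNA-Phe-3-1-/- replicate C the fold of that line was 1.09 (adjusted p = 0.434). The call in tRNA-Phe-1-1-/- livers was lost without WT replicate B (1.78, adjusted p = 0.100) or C (1.88, adjusted p = 0.110), without tRNA-Phe-1-1-/- replicate A (1.86, adjusted p = 0.104) or C (2.00, adjusted p = 0.0713), and with edgeR (1.97, adjusted p = 0.0506).

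**Figure D2:**
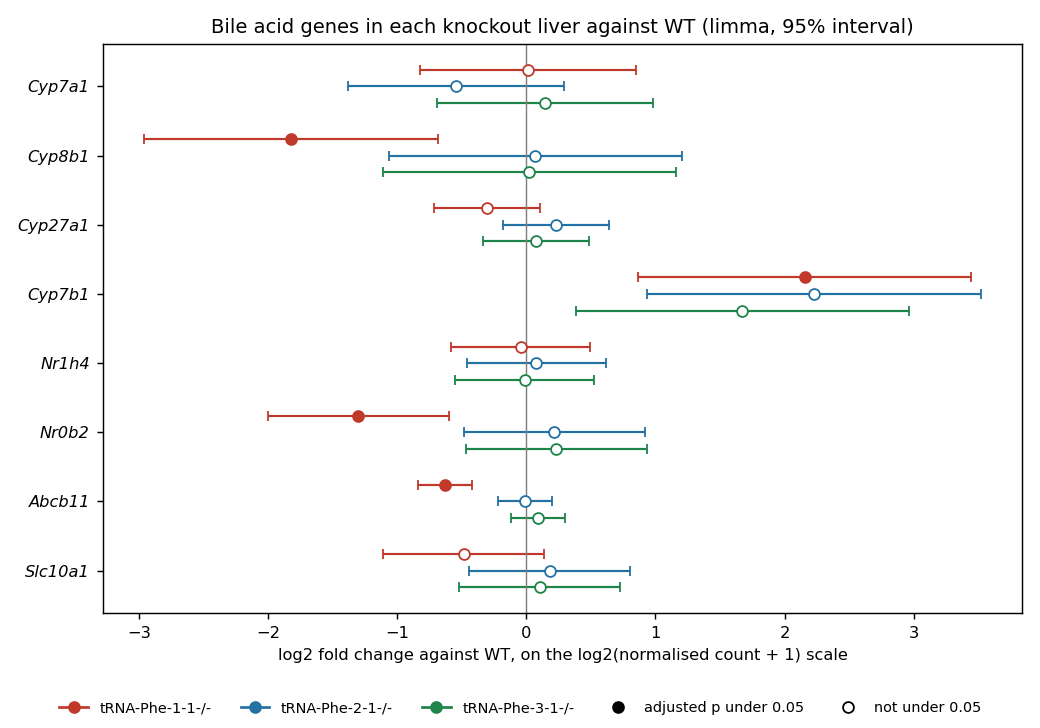
Log2 fold changes of the 8 genes in each knockout line against WT (horizontal axis, on the log2(normalised count + 1) scale) with 95% intervals from limma, where filled symbols have an adjusted p under 0.05. The 4 filled symbols all belong to tRNA-Phe-1-1-/-, and the estimates of Cyp7b1 lie between 1.67 and 2.23 in the 3 lines.

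Transcripts with a strong sex bias in mouse liver were set beside Cyp7b1, itself male-biased, after the values had been seen. Mup7 encodes a male-biased major urinary protein of a family of near-identical genes, among which reads may be divided with error. It held 173747 normalised counts in WT replicate A and 2540.1 and 2049.5 in WT replicates B and C. The 5 livers lowest in Mup7 (these WT livers, tRNA-Phe-1-1-/- replicate B with 9656, and tRNA-Phe-3-1-/- replicates A with 43934 and B with 58563) were also the 5 lowest in Cyp7b1. This number of livers was chosen after the values had been seen. When the 1, 2, 3, 4 or 6 lowest were taken, the livers shared were 0, 2, 2, 3 and 5. The female-biased Cyp2b9 was at 28.3 in WT replicate A and at 347 and 658 in WT replicates B and C. WT livers thus split in the same way for these genes, which are not independent of each other within a liver. Of 11 male-biased genes, 1 rose (Mup20) and 2 fell (Elovl3 and Cyp2u1) in tRNA-Phe-1-1-/- against WT, with a median log2 fold change of -0.03, where 8.27% of all genes were higher and 9.08% lower. Leaving out single WT or tRNA-Phe-1-1-/- livers ended the calls of Mup20 (in 4 of 6 cases, adjusted p = 0.0714 to 0.169) and Cyp2u1 (in 5 of 6, 0.0501 to 0.0678). Of 12 female-biased genes 4 were tested, and Cyp2b9 and Acot3 fell in tRNA-Phe-1-1-/- against WT. The 4 had a median log2 fold change of -1.91 in tRNA-Phe-1-1-/-, -2.18 in tRNA-Phe-2-1-/- and -1.05 in tRNA-Phe-3-1-/- against WT. The male-biased median was 0.64 in tRNA-Phe-2-1-/- and 0.26 in tRNA-Phe-3-1-/- livers. In both lines limma called 0 genes of either list (0.132% and 0.883% of all genes). DESeq2 called 2 and 0 of the 4 female-biased genes there (495 and 767 of all 15856 genes). The summed level of the male-biased list was 458241 to 787352 in WT and 646441 to 1142140.0 in tRNA-Phe-1-1-/- livers, and that of the female-biased list was 263 to 1096 and 72.5 to 159. The male-biased list was at 665172 to 907908 in tRNA-Phe-2-1-/- livers and at 386419 to 1129910.0 in tRNA-Phe-3-1-/- livers, and the female-biased list at 107 to 134 and 109 to 419. Their part in the difference of Cyp7b1 was not tested.

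**Figure D3:**
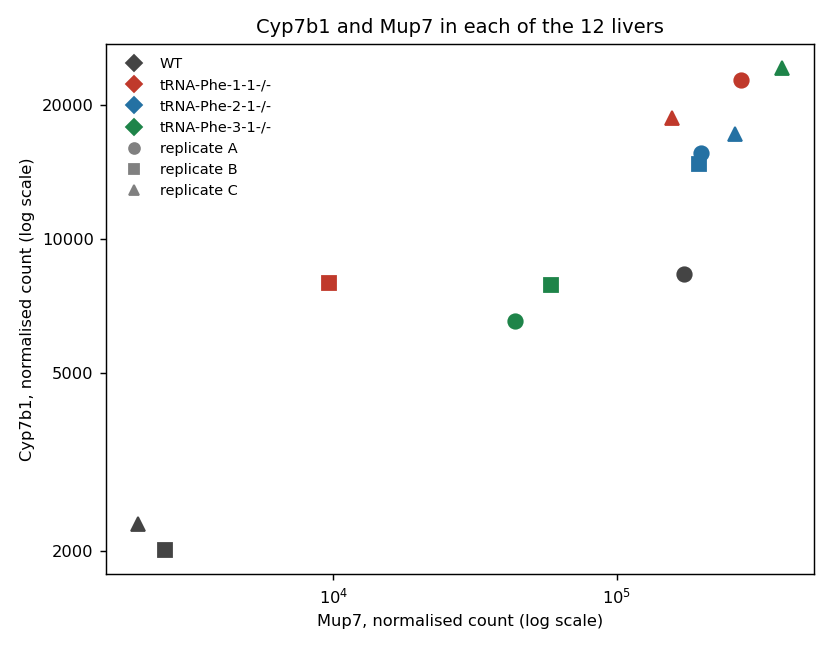
Normalised counts of Cyp7b1 (vertical axis, log scale) against those of Mup7 (horizontal axis, log scale) in each of the 12 livers, coloured by genotype with a symbol for each replicate. WT replicates B and C lie at the lower left, with Cyp7b1 at 2006 and 2295.

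A test of any difference among the 4 genotypes called 2 of the 8 genes, Abcb11 (moderated F-test, adjusted p = 0.00162) and Nr0b2 (adjusted p = 0.0155), where 17% of all genes passed. Cyp8b1 (adjusted p = 0.05004) and Cyp7b1 (adjusted p = 0.0527) lay just past the threshold, and the count was 4 without tRNA-Phe-3-1-/- replicate A and 1 without tRNA-Phe-1-1-/- replicate A. Compared directly, tRNA-Phe-1-1-/- livers were lower than tRNA-Phe-2-1-/- livers for 3 of the 8 genes (15.9% of all genes passed, 8.53% lower), and 4 of the 8 did not overlap (38% of all genes). Against tRNA-Phe-3-1-/- livers 3 of the 8 were lower (16.1% of all genes passed, 8.63% lower) and 3 did not overlap (31.8% of all genes). The genes that passed in both were Abcb11, Nr0b2 and Cyp8b1. The count against tRNA-Phe-2-1-/- was 5 without tRNA-Phe-1-1-/- replicate C, when Cyp27a1 (-0.69, adjusted p = 0.0344) and Slc10a1 (-0.94, adjusted p = 0.0431) passed too. For tRNA-Phe-2-1-/- against tRNA-Phe-3-1-/- livers limma called 0 of the 8 genes (0 at an unadjusted p under 0.05, and 0 with edgeR or DESeq2), with log2 fold changes from -0.69 (Cyp7a1) to 0.55 (Cyp7b1). Here 0% of all genes passed, and the ranges were apart for 0 of the 8 genes and for 12.2% of all genes.

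The other genes of the pathway were taken from 3 lists with 44 genes, of which 41 were tested (Ch25h, Slc51a and Gpbar1 were not). In tRNA-Phe-1-1-/- livers 12 of the 41 differed from WT, 5 higher and 7 lower, against 17.3% of all genes, and the median log2 fold change was -0.09. The count was 6 without WT replicate B or without WT replicate C, and 7 without tRNA-Phe-1-1-/- replicate A. In tRNA-Phe-2-1-/- livers 0 of the 41 passed with limma (13 at an unadjusted p under 0.05) or edgeR (0), and 1 with DESeq2, Hsd3b7. Of all 15856 genes tested, 0.132% passed with limma there, 2365 had an unadjusted p under 0.05 and 495 passed with DESeq2. In tRNA-Phe-3-1-/- livers 0 of the 41 passed with limma (4 at an unadjusted p under 0.05) or edgeR (0), and 2 with DESeq2, among them Amacr. Here 0.883% of the 15856 genes passed with limma, 2550 had an unadjusted p under 0.05 and 767 passed with DESeq2.

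Among 14 further enzymes tested 3 fell in tRNA-Phe-1-1-/- livers (21.4%) and the other 11 did not pass, with a median log2 fold change of -0.02. Of all genes tested 17.3% passed (8.27% higher and 9.08% lower), with a median of -0.01. Hsd3b7, which acts right after Cyp7a1 and Cyp7b1, held 23557, 20107 and 20197 normalised counts in WT and 11910 (11909.7), 10127 and 11979 in tRNA-Phe-1-1-/- livers (-0.91 ± 0.11, limma adjusted p = 0.000553). Akr1d1, a reductase that acts later on the steroid ring, held 5757, 7062 and 6935 in WT and 2135, 1750.1 and 3573 in tRNA-Phe-1-1-/- livers (-1.47 ± 0.21, limma adjusted p = 0.00110). Slc27a5, which activates bile acids for conjugation, held 29907, 27662 and 28089 in WT and 20752, 16257 and 24876 in tRNA-Phe-1-1-/- livers (-0.49 ± 0.15, limma adjusted p = 0.0414). The groups of these 3 enzymes did not overlap between tRNA-Phe-1-1-/- and WT, which held for 34.8% of all genes. Slc27a5 lost its call against WT without any 1 of WT replicates A, B and C or tRNA-Phe-1-1-/- replicates A and B (adjusted p = 0.0840 to 0.112), while Hsd3b7 and Akr1d1 kept theirs without any 1 of these livers or of tRNA-Phe-1-1-/- replicate C. All 3 also passed against tRNA-Phe-2-1-/- and against tRNA-Phe-3-1-/- livers. Of 14 further transporters 2 fell (14.3%, where 17.3% of all genes passed and 9.08% were lower), and the median was -0.18. Slco1a4, an uptake transporter of the sinusoidal membrane, held 1849, 4584 and 4129 in WT and 215 (215.5), 401 and 351 in tRNA-Phe-1-1-/- livers (-3.39 ± 0.45, limma adjusted p = 0.000732). Abcc3, which exports conjugates back to blood, held 10377, 11956 and 10848 in WT and 5170.0, 4340.5 and 7879 in tRNA-Phe-1-1-/- livers (-0.98 ± 0.22, limma adjusted p = 0.0106).

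Of 13 regulators tested 5 rose and 2 fell (53.8% passed), with a median log2 fold change of 0.08. Of all genes 17.3% passed (8.27% higher and 9.08% lower), with a median of -0.01. Among those that rose were Rxra, the partner of FXR on DNA (0.73 ± 0.14, limma adjusted p = 0.00476), the hepatocyte transcription factor Hnf4a (0.50 ± 0.13, adjusted p = 0.0202), Prox1 and Nr1h3. Those that fell were both parts of the hepatocyte receptor for the gut hormone Fgf15, which represses Cyp7a1. Klb held 1901, 1644 and 2048 normalised counts in WT and 1057, 1188 and 1290.4 in tRNA-Phe-1-1-/- livers (-0.66 ± 0.13, limma adjusted p = 0.00700). Fgfr4 held 888, 894 and 953 in WT and 543, 773 and 575 in tRNA-Phe-1-1-/- livers (-0.55 ± 0.15, limma adjusted p = 0.0272). Neither Klb nor Fgfr4 overlapped with WT (34.8% of all genes did not), and both passed against the other knockout lines. When each WT and tRNA-Phe-1-1-/- liver was left out in turn, Klb and Rxra kept their calls against WT. Fgfr4 lost its call without WT replicates A, B or C or tRNA-Phe-1-1-/- replicates A or C (adjusted p = 0.0526 to 0.106), and Hnf4a without WT replicates B or C or tRNA-Phe-1-1-/- replicate B (0.0560 to 0.0651). Prox1 lost it without WT replicates B or C or tRNA-Phe-1-1-/- replicates A or C (0.0705 to 0.129), and Nr1h3 without any 1 of the 6 livers other than WT replicate A (0.0795 to 0.176).

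**Figure D4:**
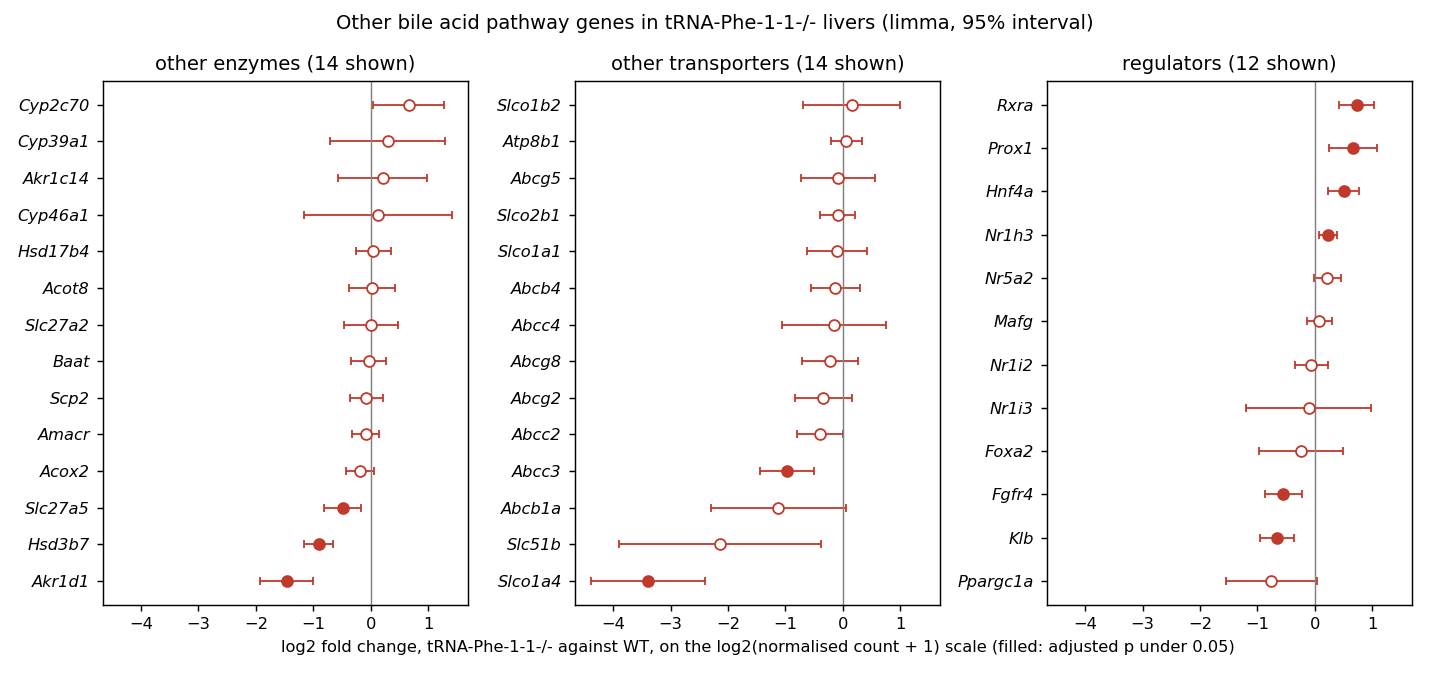
Log2 fold changes (horizontal axes, on the log2(normalised count + 1) scale) with 95% intervals of 14 further enzymes, 14 further transporters and 12 of the 13 regulators tested of the bile acid pathway in tRNA-Phe-1-1-/- against WT livers, where filled symbols have an adjusted p under 0.05. The filled symbols are 3 enzymes and 2 transporters, all lower, and 4 higher and 2 lower regulators.

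Other gene groups moved in the same comparison, in which 17.3% of all genes passed (8.27% higher and 9.08% lower). Of 10 clock genes in phase with Dbp, 7 rose in tRNA-Phe-1-1-/- against WT livers (median log2 fold change of the list 2.21). Ciart, Per1 and Dbp had the lowest adjusted p. The summed level was 3504 to 5596 in WT, 11151 to 23384 in tRNA-Phe-1-1-/-, 3775 to 8376 in tRNA-Phe-2-1-/- and 6225 to 15368 in tRNA-Phe-3-1-/- livers. Of 5 clock genes in phase with Bmal1, 5 fell (median log2 fold change of the list -1.08). The lowest adjusted p were those of Npas2, Arntl and Clock, which is not an order by size of the fall. Their summed level was 7692 to 8414 in WT, 3243 to 5175 in tRNA-Phe-1-1-/-, 6248 to 8220.0 in tRNA-Phe-2-1-/- and 4617 to 7019 in tRNA-Phe-3-1-/- livers. The median of this list was -0.61 in tRNA-Phe-2-1-/- and -1.18 in tRNA-Phe-3-1-/- livers, and that of the list in phase with Dbp was -0.01 and 1.36. Of 15 acute phase genes 13 rose, with the lowest adjusted p for Hp, Saa1 and Saa2 (the last pair are close copies). Their summed level as a list was 714813 to 782290.0 in WT and 993061 to 1757350.0 in tRNA-Phe-1-1-/- livers, against 663981 to 702992 in tRNA-Phe-2-1-/- and 614516 to 863017 in tRNA-Phe-3-1-/- livers. The highest tRNA-Phe-1-1-/- liver was replicate B, which was the lowest liver of that line for each of the 8 bile acid genes other than Abcb11, for which it was the highest. Among the zonation markers, 3 of 8 pericentral genes rose (Slc1a2, Lhpp and Oat), and of 6 periportal genes Pck1 rose and Hal fell. Leaving out single WT or tRNA-Phe-1-1-/- livers ended the calls of Lhpp (in 5 of 6 cases, adjusted p = 0.0562 to 0.102), Oat (in 4 of 6, 0.0559 to 0.108) and Clock (in 3 of 6, 0.0521 to 0.0634), and those of Slc1a2, Pck1 and Hal in 0. Of the list in phase with Bmal1, Cry1 also lost its call in 5 of 6 cases and Nfil3 in 4. Among the acute phase genes, Fga and Fgg lost theirs in 5 of 6 cases, Orm1 and Orm3 in 4, Saa3 in 3 and Itih4 in 2. Hp, Saa1, Saa2, Orm2, Lcn2, Fgb and Lbp kept theirs in each case. The summed level of the pericentral list was 96029 to 139695 in WT, 101879 to 214490.0 in tRNA-Phe-1-1-/-, 190323 to 218390.0 in tRNA-Phe-2-1-/- and 118673 to 234038 in tRNA-Phe-3-1-/- livers, with medians of log2 fold change of 0.53, 0.60 and 0.74 in the 3 lines in this order. That of the periportal list was 87731 to 105801 in WT, 137495 to 173408 in tRNA-Phe-1-1-/-, 66294 to 102452 in tRNA-Phe-2-1-/- and 94628 to 125440.0 in tRNA-Phe-3-1-/- livers (medians -0.33, -0.72 and -0.01), so that in tRNA-Phe-1-1-/- livers the sum was above WT while the median gene was below. With limma, Oat was also higher in tRNA-Phe-3-1-/- against WT livers (adjusted p = 0.0353). The part of clock phase, acute phase response and zonation in the differences of the bile acid genes was not tested.

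Markers of cell types were counted in the same comparison, in which 17.3% of all genes passed (8.27% higher and 9.08% lower). Of 8 hepatocyte markers 1 rose with limma (Hnf4a, which is also in the regulator list), while edgeR called 2 and DESeq2 3. Their summed level was 3800710.0 to 4619120.0 in WT and 3219670.0 to 3823670.0 in tRNA-Phe-1-1-/- livers. It was 3383330.0 to 3610640.0 in tRNA-Phe-2-1-/- livers, below the WT range, and 3963370.0 to 4822370.0 in tRNA-Phe-3-1-/- livers. Of 6 cholangiocyte markers tested limma called 0 (0 at an unadjusted p under 0.05, and 0 with edgeR or DESeq2), with a summed level of 1468 to 1551 in WT and 1519 to 2264 in tRNA-Phe-1-1-/- livers. Of 6 Kupffer cell markers limma called 0 as well (0 at an unadjusted p under 0.05, and 0 with edgeR or DESeq2), with 6769.9 to 7908 in WT and 6454 to 9595 in tRNA-Phe-1-1-/- livers. Of 7 stellate and endothelial markers Lyve1 and Dcn rose, with a summed level of the list of 17455 to 18627 in WT and 16522 to 20418 in tRNA-Phe-1-1-/- livers. Leaving out single livers of these groups ended the call of Lyve1 in 3 of 6 cases (adjusted p = 0.0525 to 0.0567) and that of Dcn in 5 of 6 (0.0623 to 0.130). Fgf15, the ileal hormone, had 1.60 normalised counts in tRNA-Phe-2-1-/- replicate A and was listed at 0 in the other livers.

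For the 4 genes that passed in a liver comparison, the genes with the most similar pattern over the 12 livers were sought among 12461 others by the root mean square difference of log2 deviations from each gene's own mean. Slc39a8 (0.0812) and BC004004 (0.0867) were nearest to Abcb11, whose own deviation was 0.298. For Nr0b2 they were Nmnat3 (0.284) and Fermt2 (0.305), against an own deviation of 0.739. For Cyp8b1 they were E330011O21Rik (0.297) and Gm4952 (0.352), against 1.01. For Cyp7b1 they were 9030619P08Rik (0.456) and Selenbp2 (0.501), against 1.14. Selenbp2 is also in the male-biased list.

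In the brain, only Cyp27a1 and Cyp7b1 passed the filter on low values. Cyp27a1 ranged from 62.3 to 249 normalised counts over the 12 brains and Cyp7b1 from 332 to 538. The other 6 genes had brain means of 0.518 (Nr0b2) to 8.31 (Abcb11) normalised counts and were not tested. In the 3 comparisons of a knockout with WT limma called neither gene (0 with edgeR or DESeq2 and 0 at an unadjusted p under 0.05, with 1.05% of all brain genes called in tRNA-Phe-1-1-/- and 0% in the other lines). For Cyp7b1 in tRNA-Phe-1-1-/- brains the log2 fold change was -0.19 (95% interval -0.49 to 0.11). The tissues were normalised on their own, so the difference between liver and brain was not tested.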

How the data were processed

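The authors' pipeline ran Trim Galore, STAR on GRCm38.p6 and Salmon on GENCODE transcripts, with strand taken into account. They summed estimates per gene and divided them by DESeq2 size factors in each tissue. The deposited tables hold this normalised signal for 55469 genes. Deposited tables of comparisons hold the authors' fold changes and s-values and were not used. Salmon divides reads between transcripts, which affects close gene copies most, and dividing by size factors takes most genes to be unchanged.

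Each value was a whole multiple of a step per column (100% of values within 0.01 read), which gave the depth and reads for edgeR 4.0.16 and DESeq2 1.42.0. Genotype, tissue and replicate came from the sample titles. Genes with a mean of at least 10 entered limma 3.58.1 (R 4.3.3) on the log2(normalised count + 1) scale (moderated, with a trend of variance on the mean, two-sided, Benjamini-Hochberg), on 12 samples per tissue. The procedure was tested on simulated data with the same relative spread for every gene, which does not bear on genes that varied more between replicates. Alternatives were pseudocounts of 0.1 and 5, a filter at a mean of 50 or none, quantile normalisation, trimmed-mean (TMM) rescaling, no variance trend, 2 groups only, the replicate letter as a block, edgeR, DESeq2 and leaving out each replicate. The smallest p of an exact permutation test with 3 samples per group is 0.1. No replicate pair agreed within sampling noise (lowest chi-square per degree of freedom 14.1).

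The bile acid genes and all lists (other enzymes, other transporters, regulators, clock, acute phase, sex-biased, zonation and cell type markers) were chosen with earlier results of these data known. Named genes were the 8 genes, up to 3 rises and 3 falls per pathway list, up to 3 per other list with the lowest adjusted p, and the 2 most similar genes with a mean of at least 50. Further names were given where a count was small. The values of a regulator are not reported here. Symbols came from GENCODE vM39 by Ensembl identifier (93.2% matched), exon lengths from the same release, and positions and promoters from RefSeq for GRCm38.p6.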

Additional observations from a re-analysis of the deposited data

How the results depend on the processing

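In tRNA-Phe-1-1-/- against WT livers 4 of the 8 genes passed, and the count was 2 in a fit of these 2 groups only and 1 to 3 when a replicate was left out. The test of any difference among the genotypes called 2 genes, but 4 after quantile normalisation or with a mean of at least 50, and 1 to 4 when a replicate was left out. Against tRNA-Phe-2-1-/- the count of 3 was 2 to 5, and of the other pathway genes the count of 12 was 6 to 11, when a replicate was left out. With the replicate letter as a block 4 genes passed in tRNA-Phe-1-1-/- against WT, 3 against each other knockout and 2 in the test of any difference, so it changed no call of these genes. In the liver, samples with the same letter did not deviate together (correlations -0.29 to 0.24, and 3 of 12 livers correlated best with their own letter). The letter was thus not taken to pair the livers. In the brain these correlations were -0.16 to 0.49, and 7 of 12 samples correlated best with their own letter. Whether the letter pairs brain samples cannot be told from this. Of 816 values of single genes under the alternatives, 22 called ones lost their call and 3 gained one, with 0 called ones changing sign, while 47 values that were not called on either side changed sign. Without a variance trend Cyp8b1 lost its call against WT (adjusted p = 0.0565), tRNA-Phe-2-1-/- (0.0540) and tRNA-Phe-3-1-/- (0.0577), and in fits of 2 groups only it was at 0.100, 0.0777 and 0.127, while Cyp7b1 was at 0.0599. In edgeR Cyp7b1 was at 0.0506. The cause of these changes was not tested. Over all settings and liver comparisons, the median log2 fold change of all genes was at most 0.0236 in absolute size. The lowest liver value of the 8 genes was 481 normalised counts, and in the brain, with 30365760 to 46225360 reads per sample, 6 of them were under the minimum mean of 10 and were not tested.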
